A study of Mus musculus with 9 samples.

Results

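The voltage-gated and potassium channel genes of mouse brain were followed across the cell classes of ependymomas driven by the ZFTA-RELA fusion and of control brain. A gene was taken as a member when its symbol in the deposited feature list began with Kcn, letters and a final number, was Scn, a number and a or b, or began with Cacna, Cacnb or Cacng. This gave 132 of 32289 listed features: 40 voltage-gated potassium (Kv) alpha subunits and 11 Kv accessory genes, 15 inward rectifiers (Kir), 14 K2P background potassium channels, 12 calcium- or sodium-activated potassium (KCa and KNa) channel genes, 10 sodium channel alpha and 4 beta subunits, 10 calcium channel alpha1 subunits, 4 alpha2delta, 4 beta and 8 gamma or AMPA receptor regulatory (TARP) subunits.

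Droplet-based single-cell RNA-seq of the 5′ ends of transcripts was read in 5 EPZFTA-RELA tumor mice (genotype label NestinCreERT2;Fus1) and 4 control mice (NestinCreERT2;TdT), all aged 6 to 8 weeks. Each mouse was 1 library of brain or tumor tissue, dissociated, cleared of debris on Percoll and sorted as live cells without the red-cell antigen Ter119. The fusion was a conditional transgene in the Rosa26 locus, recombined where the Nestin promoter, active in neural progenitors, drives CreERT2, so both groups carried NestinCreERT2. The label check held in the counts: UMIs (unique molecular identifiers, 1 per captured transcript) of the fusion numbered 0 in each control library and 6, 235, 6, 698 and 319 in tumor replicates 1 to 5, and tdTomato or mCherry UMIs numbered 259, 373, 306 and 864 in the control libraries and 0 in each tumor library.

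Voltage-gated sodium and calcium channels open on depolarization and carry the inward currents of action potentials, transmitter release and dendritic signaling, and voltage-gated potassium channels repolarize the membrane. Inward rectifiers and K2P channels are open near rest and set the resting potential of many cells, including glia, microglia and vessel cells. Beta, alpha2delta, gamma and other accessory subunits set where the pores go and how they gate.

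After removal of low-quality barcodes and doublets 35024 cells were kept, 19568 from control and 15456 from tumor mice, with 1288 to 5907 cells and 5900868 to 37615459 UMIs per library. Cells were gated into classes by lists of textbook markers that held no channel gene, and UMIs were summed per mouse and class where a mouse had at least 20 such cells. Neuron-gated cells numbered 2482 to 3043 in the control mice and 140 to 711 in 4 of the tumor mice, and tumor replicate 4 had 3 and gave no sum. Progenitor/tumor-gated cells, taken from the tumor mice only, numbered 199 to 3638, and whether each was a tumor cell was not tested. The smaller classes are named with their replicates, and no 2 of 8 libraries shared more than 10 cell barcodes. The barcodes of control replicate 4, whose list is incomplete, were not compared. Levels are given in CPM, the UMIs of a gene per 1000000 UMIs of that mouse and class, with no length scaling because each UMI marks 1 transcript end. The 3000 deposited barcodes with fewest UMIs in each library (medians of 559 to 1338 UMIs) were read as a measure of free RNA, and whether those droplets held no cell was not tested.

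Channel transcripts were more abundant in neuron-gated cells than in progenitor/tumor-, glia- or vessel-gated cells of the same tissue. Summed over the 132 genes, neuron-gated cells held 7639 to 7841 CPM in the 4 control mice and 6266 to 9439 CPM in the 4 tumor mice, and progenitor/tumor-gated cells held 1455 to 1759 CPM in the 5 tumor mice, with no overlap. Mural-gated cells, pericytes and smooth muscle of the vessel wall from tumor replicates 2, 3 and 4, held 1829.7 to 2369.5 CPM. In the glia- and endothelial-gated classes each control sum lay above each tumor sum. In microglia-gated cells the sum was 3861 to 4357 CPM in control and 607 to 1315 CPM in tumor mice, and in endothelial-gated cells 2991 to 3184 CPM (control replicates 1 and 4) and 307 to 1156 CPM. Astrocyte-gated cells held 4464 to 4936 and 1627 to 2227 CPM, oligodendrocyte-gated cells 4293 to 4429 and 874 to 2137 CPM, and cells gated as oligodendrocyte precursors (OPC) 5181 to 5644 (control replicates 2 and 3) and 2121 to 3929.7 CPM.

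Free RNA moved in the same direction. It held 5096 to 5194 CPM of channel transcripts in the control libraries and 1822 to 3593 CPM in the tumor libraries. A set of 7 neuronal reference genes (Snap25, Syt1, Slc17a7, Nefl, Ppp1r1b, Gria2 and Grin2b) stood in microglia-gated cells at 66.5 to 74.2% of its free-RNA level in control mice and at 5.74 to 29.6% in tumor mice. In astrocyte-gated cells the same ratio was 82.8 to 98.5% and 41.0 to 77.4%. Gria2 was the largest of the 7 there, at 1425 to 1785 CPM in control and 293 to 1117 CPM in tumor mice. The astrocyte ratio therefore cannot be read as neuronal background alone, and the source of that Gria2 was not tested. All 7 reference genes are also markers of the neuron gate, which limits their level in cells gated to other classes. Neuronal channel transcripts in glia- and vessel-gated cells are given beside the free RNA, and its part in them was not tested. Where values with free RNA subtracted are printed, the share subtracted was this 7-gene ratio, and neuron-gated sums were left as they were.

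**Figure D1:**
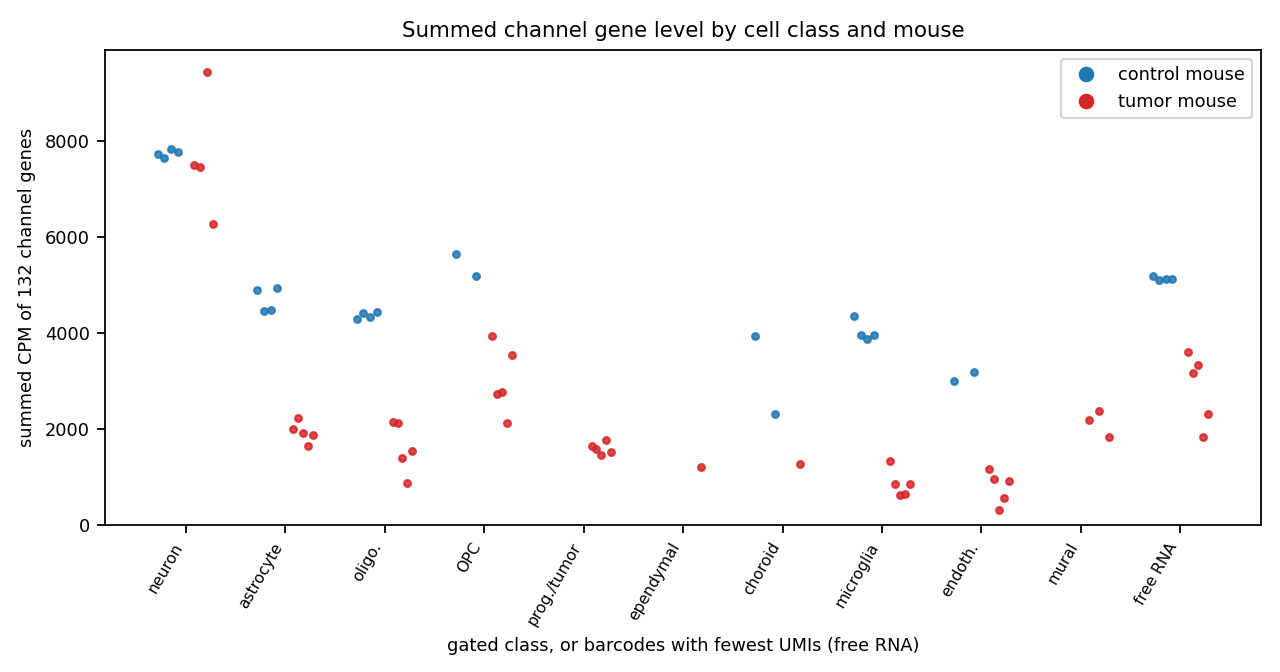
Summed CPM of the 132 channel genes on the vertical axis for each cell class and for free RNA on the horizontal axis with 1 point per mouse, control mice in blue and tumor mice in red. Neuron-gated cells lie between 6266 and 9439 CPM, above every progenitor/tumor-gated sum, and the glia- and endothelial-gated sums of control mice lie above those of tumor mice.

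Every channel family was lower in progenitor/tumor-gated than in neuron-gated cells by its mean, but not to the same degree. Kv alpha subunits summed to 2022 ± 414 CPM in neuron-gated cells (mean ± SD, n = 8 mice) and 250.3 ± 83.8 CPM in progenitor/tumor-gated cells (n = 5), sodium channel alpha subunits to 1078 ± 61.9 and 95.4 ± 27.0 CPM, and calcium channel alpha1 subunits to 1295 ± 156 and 158 ± 28.8 CPM. Kir channels stood at 361 ± 75.0 and 205 ± 86.5 CPM, alpha2delta subunits at 539 ± 80.8 and 233 ± 120.5 CPM, and sodium channel beta subunits at 392 ± 95.1 and 308 ± 282 CPM. Kir sums of single mice overlapped, with 241 to 432 CPM in neuron-gated and 109 to 314 CPM in progenitor/tumor-gated cells. So did sodium beta sums, with 280 to 553 and 87.9 to 783 CPM. Other classes had a family of their own at or above the neuronal level: Kir in mural-gated cells (1089 ± 108 CPM, n = 3) and in choroid plexus-gated cells (568 ± 107 CPM, n = 3), and gamma or TARP genes in OPC-gated cells (489 ± 174 CPM, n = 7, against 228 ± 70.8 CPM in neurons). These sums were not tested, since single genes were.

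**Figure D2:**
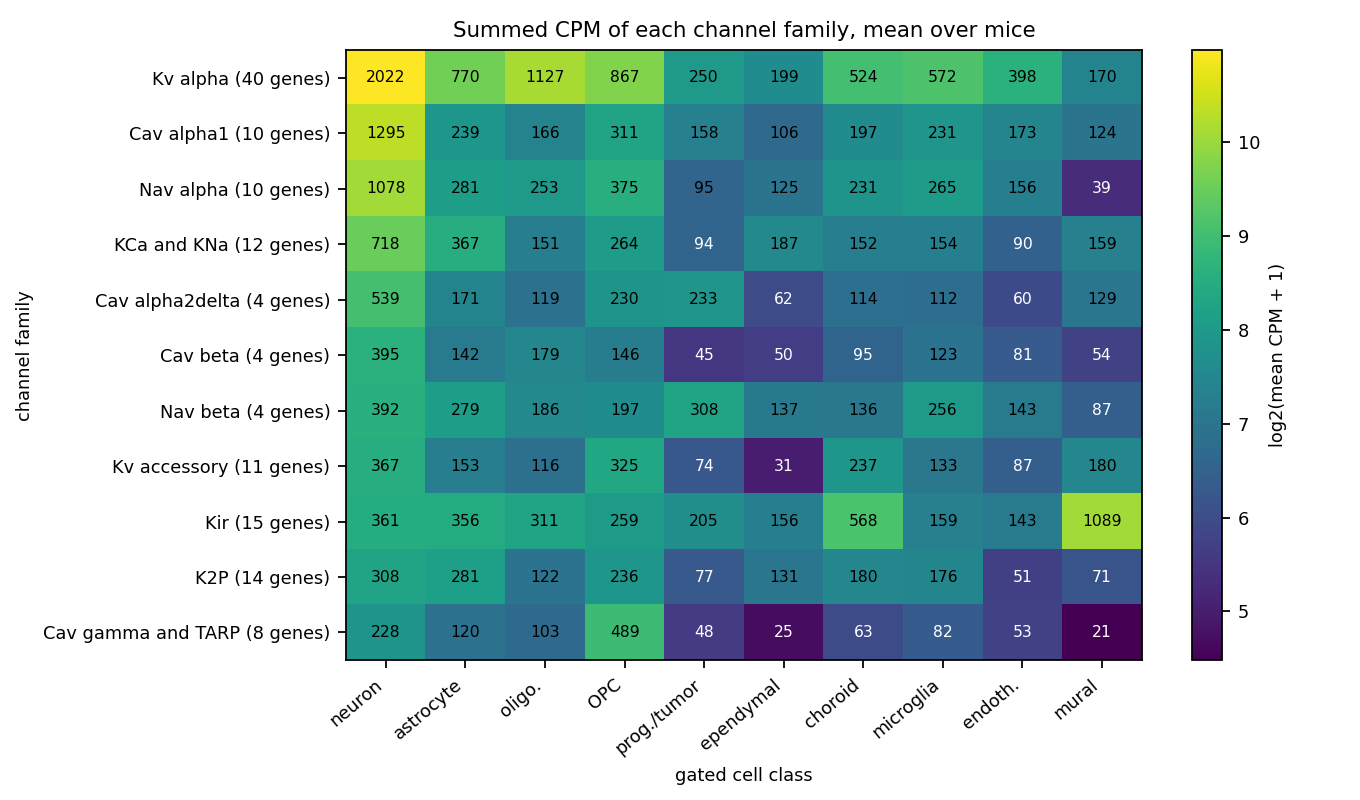
Summed CPM of each of the 11 channel families by cell class: the number in each cell is the mean over mice in CPM, and its color is log2 of that mean plus 1. The neuron column is high in every family, while Kir stands out in the mural and choroid plexus columns and the gamma and TARP family in the OPC column.

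Gene by gene, 100 of the 132 members had enough UMIs to be tested in a fit that compared the sums of each class with neuron-gated cells, with the mouse as a block (edgeR quasi-likelihood test, Benjamini-Hochberg adjustment over all genes tested, threshold 0.05). The other 32 had 1 to 1166 UMIs in the kept cells and were not tested there. In progenitor/tumor-gated cells 78 of the 100 passed, 4 higher and 74 lower, against 57.1% of all 13708 genes tested (21% higher and 36.1% lower). Among the glia the balance leaned the same way. In astrocyte-gated cells 66 of the 100 passed, 3 higher and 63 lower, against 50.5% of all genes (19.5% higher and 31% lower), in oligodendrocyte-gated cells 74 of the 100 passed, 4 higher and 70 lower, against 51% of all genes (17.7% higher and 33.3% lower), and in OPC-gated cells 58 of the 100 passed, 7 higher and 51 lower, against 36.4% of all genes (11.1% higher and 25.4% lower). Microglia and vessel cells had higher shares of lower genes than all genes did, too. In microglia-gated cells 82 of the 100 passed, 5 higher and 77 lower, against 62.1% of all genes (24.4% higher and 37.7% lower), in endothelial-gated cells 89 of the 100 passed, 7 higher and 82 lower, against 58.7% of all genes (22.9% higher and 35.8% lower), and in mural-gated cells 56 of the 100 passed, 5 higher and 51 lower, against 36.7% of all genes (15.3% higher and 21.4% lower). Without tumor replicate 3 the mural count was 32. The share of all genes in that fit is not given here, so whether channel genes stood apart without that mouse cannot be read. The median log2 fold change of the 100 genes was -2.38 in progenitor/tumor-gated, -1.56 in astrocyte-gated, -1.89 in oligodendrocyte-gated, -1.50 in OPC-gated, -1.93 in microglia-gated, -2.66 in endothelial-gated and -3.59 in mural-gated cells, while the medians of all genes lay between -0.50 and -0.21. In each of the 7 comparisons the channel genes thus had a larger share lower and a smaller share higher than all genes did. With DESeq2, which differs from edgeR in scaling, dispersion and the handling of 0 counts, the median of all genes in progenitor/tumor-gated cells went from -0.34 to -0.70 and in microglia-gated cells from -0.28 to -0.51, and the other 5 moved by less.

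Across the 7 comparisons 29 of the 100 channel genes were lower than in neurons every time, against 8.83% of all 13708 genes tested, among them Cacna1a, Cacna1b, Cacna1d, Cacna1e and Cacna1g, Cacna2d3, Cacng2 and Cacng3, Kcna4, Kcnc2, Kcnf1, Kcnh1, Kcnh3, Kcnh4 and Kcnh7, Kcnip2 and Kcnip4, Kcnj4, Kcnj6 and Kcnj9, Kcnk9, Kcnma1, Kcnq5, Kcnt1, Scn1a, Scn2a, Scn3b and Scn8a. Another 25 were higher than in neurons in at least 1 class, against 52% of all genes, and 19 of them in 1 class alone, against 19.8%. They held 10 of the 19 tested Kir and K2P genes (52.6%, close to the share of all genes), the potassium channels that act near rest, though in each class more genes of either family were lower than higher. Of 16 tested calcium alpha1 and sodium alpha subunits 1 was higher in a class, Cacna1s. The families are taken in turn.

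Kcnj10, the inward rectifier through which astrocytes and oligodendrocytes take up extracellular potassium, was higher than in neurons in 4 classes. In astrocyte-gated cells it stood at 223, 126, 171 and 165 CPM in the control mice and 117, 263, 204, 381 and 218 CPM in the tumor mice, against 18.0 to 59.4 CPM (median 37.4) in neuron-gated cells of 8 mice (log2 fold change 2.40 ± 0.24 (SE), adjusted p = 2.25e-12). The groups of mice overlapped in astrocytes, and each astrocyte value lay above each neuronal value. Oligodendrocyte-gated cells held 166, 114, 136 and 105 CPM in control and 244, 284, 242, 193 and 239.9 CPM in tumor mice (2.38 ± 0.25, adjusted p = 5.49e-12), so that here each tumor mouse was above each control mouse. In OPC-gated cells the range was 62.4 to 186 CPM over 7 mice (1.54 ± 0.29, adjusted p = 1.98e-05). Progenitor/tumor-gated cells held 56.6, 147, 35.6, 143 and 97.5 CPM in tumor replicates 1 to 5 (1.01 ± 0.28, adjusted p = 0.00185), and the low values of replicates 1 and 3 reached into the neuronal range. Free RNA held 76.4, 203, 101, 298 and 144 CPM in the same tumor libraries, above the progenitor/tumor-gated value in each. With free RNA subtracted the fold change was -0.59 in progenitor/tumor-gated and -0.26 in OPC-gated cells. Neuron sums were not subtracted, so the progenitor/tumor value fell by construction, and in OPC-gated cells the subtracted share was 82.3% or more. For Kcnj10 the sign after subtraction is therefore not read as a result. Its subunit partner Kcnj16 was higher in astrocyte-gated cells, with 57.4, 37.2, 35.5 and 43.6 CPM in control and 22.6, 14.4, 32.9, 3.51 and 14.0 CPM in tumor mice against 0 to 6.22 CPM in neurons (2.97 ± 0.38, adjusted p = 1.95e-09), and every control astrocyte value exceeded every tumor one. It was also higher in OPC-gated cells (2.95 ± 0.50, adjusted p = 4.72e-06).

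Kcnj8, the pore of the ATP-sensitive potassium channel of pericytes and smooth muscle, reached 1055, 892 and 1142 CPM in the mural-gated cells of tumor replicates 2, 3 and 4, from 153, 172 and 246 UMIs. Neuron-gated cells held at most 0.796 CPM in any mouse and 0 UMIs in the tumor mice (adjusted p = 1.48e-22). Fitted fold changes of genes that neuron-gated cells of tumor mice lacked depend on the prior count of the fit, so they are left out here and for other such genes. Endothelial-gated cells held 35.4 and 9.39 CPM in control replicates 1 and 4 and 9.99, 8.55, 0, 1.18 and 0 CPM in the tumor mice (adjusted p = 0.00028), and microglia-gated cells at most 6.07 CPM (adjusted p = 0.0107, a call lost without control replicate 1). These endothelial values rest on 2 and 1 UMIs in the control and 4, 5, 0, 1 and 0 UMIs in the tumor mice.

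Kcnj13, an inward rectifier of the choroid plexus epithelium, was at 471 and 554 CPM in choroid plexus-gated cells of control replicates 2 and 3 and at 424 CPM in those of tumor replicate 1, against 0 to 16.6 CPM in neurons. No test was made for this class of 3 mice. Kcne2, a small accessory subunit also known from that epithelium, stood at 136, 105 and 155 CPM in the same 3 mice. Kcnj12, a strong inward rectifier of excitable cells, had a different pattern, with 22.1, 150.0, 78.0, 111 and 105 CPM in the progenitor/tumor-gated cells of tumor replicates 1 to 5, 2.99, 4.07, 3.18 and 3.80 CPM in control neurons and 2.70, 20.7, 11.995 and 22.4 CPM in the neuron-gated cells of tumor replicates 1, 2, 3 and 5 (log2 fold change 2.67 ± 0.37 (SE), adjusted p = 2.06e-08). The lowest progenitor/tumor-gated value, in replicate 1, lay within the neuronal range, and the other 4 were above all neuronal values. It held 6.27, 64.9, 13.1, 71.5 and 49.2 CPM in the free RNA of the tumor libraries and 6.49, 5.05, 5.40 and 3.89 CPM in that of the control libraries. Kcnj2, another strong rectifier, was higher in microglia-gated (6.01 to 46.9 CPM, 1.39 ± 0.37, adjusted p = 0.000958) and endothelial-gated cells (17.2 to 49.6 CPM, 2.08 ± 0.43, adjusted p = 4.16e-05) than in neurons (5.41 to 14.0 CPM). The neuronal rectifiers went the other way: Kcnj4, Kcnj6 and Kcnj9, the last 2 being G protein-gated subunits, were lower in every class, with log2 fold changes in progenitor/tumor-gated cells of -3.07, -3.71 and -3.96.

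The sequences just before the start sites of 4 Kir genes with different leading classes (Kcnj8 mural, Kcnj10 glia, Kcnj13 choroid plexus, Kcnj12 progenitor/tumor) are shown because they differ in base composition. Each is the 200 bases before the RefSeq start (GRCm38.p6), 5′ to 3′ on the gene's strand, with CG pairs in capitals. Kcnj8 lies at chr6:142571615-142571814 (- strand), Kcnj10 at chr1:172341010-172341209 (+ strand), Kcnj13 at chr1:87394730-87394929 (- strand) and Kcnj12 at chr11:61065604-61065803 (+ strand).
Kcnj8: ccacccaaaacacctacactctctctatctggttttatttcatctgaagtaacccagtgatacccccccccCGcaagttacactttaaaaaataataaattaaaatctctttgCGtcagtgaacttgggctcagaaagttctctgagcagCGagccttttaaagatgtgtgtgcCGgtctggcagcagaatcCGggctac
Kcnj10: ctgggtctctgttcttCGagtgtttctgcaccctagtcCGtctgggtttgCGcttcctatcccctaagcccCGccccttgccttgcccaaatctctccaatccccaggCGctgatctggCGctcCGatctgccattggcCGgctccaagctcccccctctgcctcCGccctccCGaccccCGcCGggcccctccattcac
Kcnj13: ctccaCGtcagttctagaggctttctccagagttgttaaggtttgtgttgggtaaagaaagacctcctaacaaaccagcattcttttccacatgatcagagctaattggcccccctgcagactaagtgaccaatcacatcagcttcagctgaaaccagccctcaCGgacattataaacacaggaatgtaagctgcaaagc
Kcnj12: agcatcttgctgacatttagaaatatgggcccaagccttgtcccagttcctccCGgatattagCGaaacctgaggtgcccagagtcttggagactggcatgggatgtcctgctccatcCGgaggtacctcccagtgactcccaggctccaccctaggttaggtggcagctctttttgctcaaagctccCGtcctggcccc
The Kcnj10 stretch holds 12 CG pairs, Kcnj8 5, Kcnj12 4 and Kcnj13 2. The letters TATAAA (searched on both strands) occur only in Kcnj13 among the 4, first base at position -29. Over the 250 bases before a start, RefSeq windows were found for 97 of the 132 symbols: 3.76% of their 133 windows held TATAAA, against 12.4% of all 32851 windows, and their median CG count was 8 against 6. A match is a description of letters, not of a bound site.

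**Figure D3:**
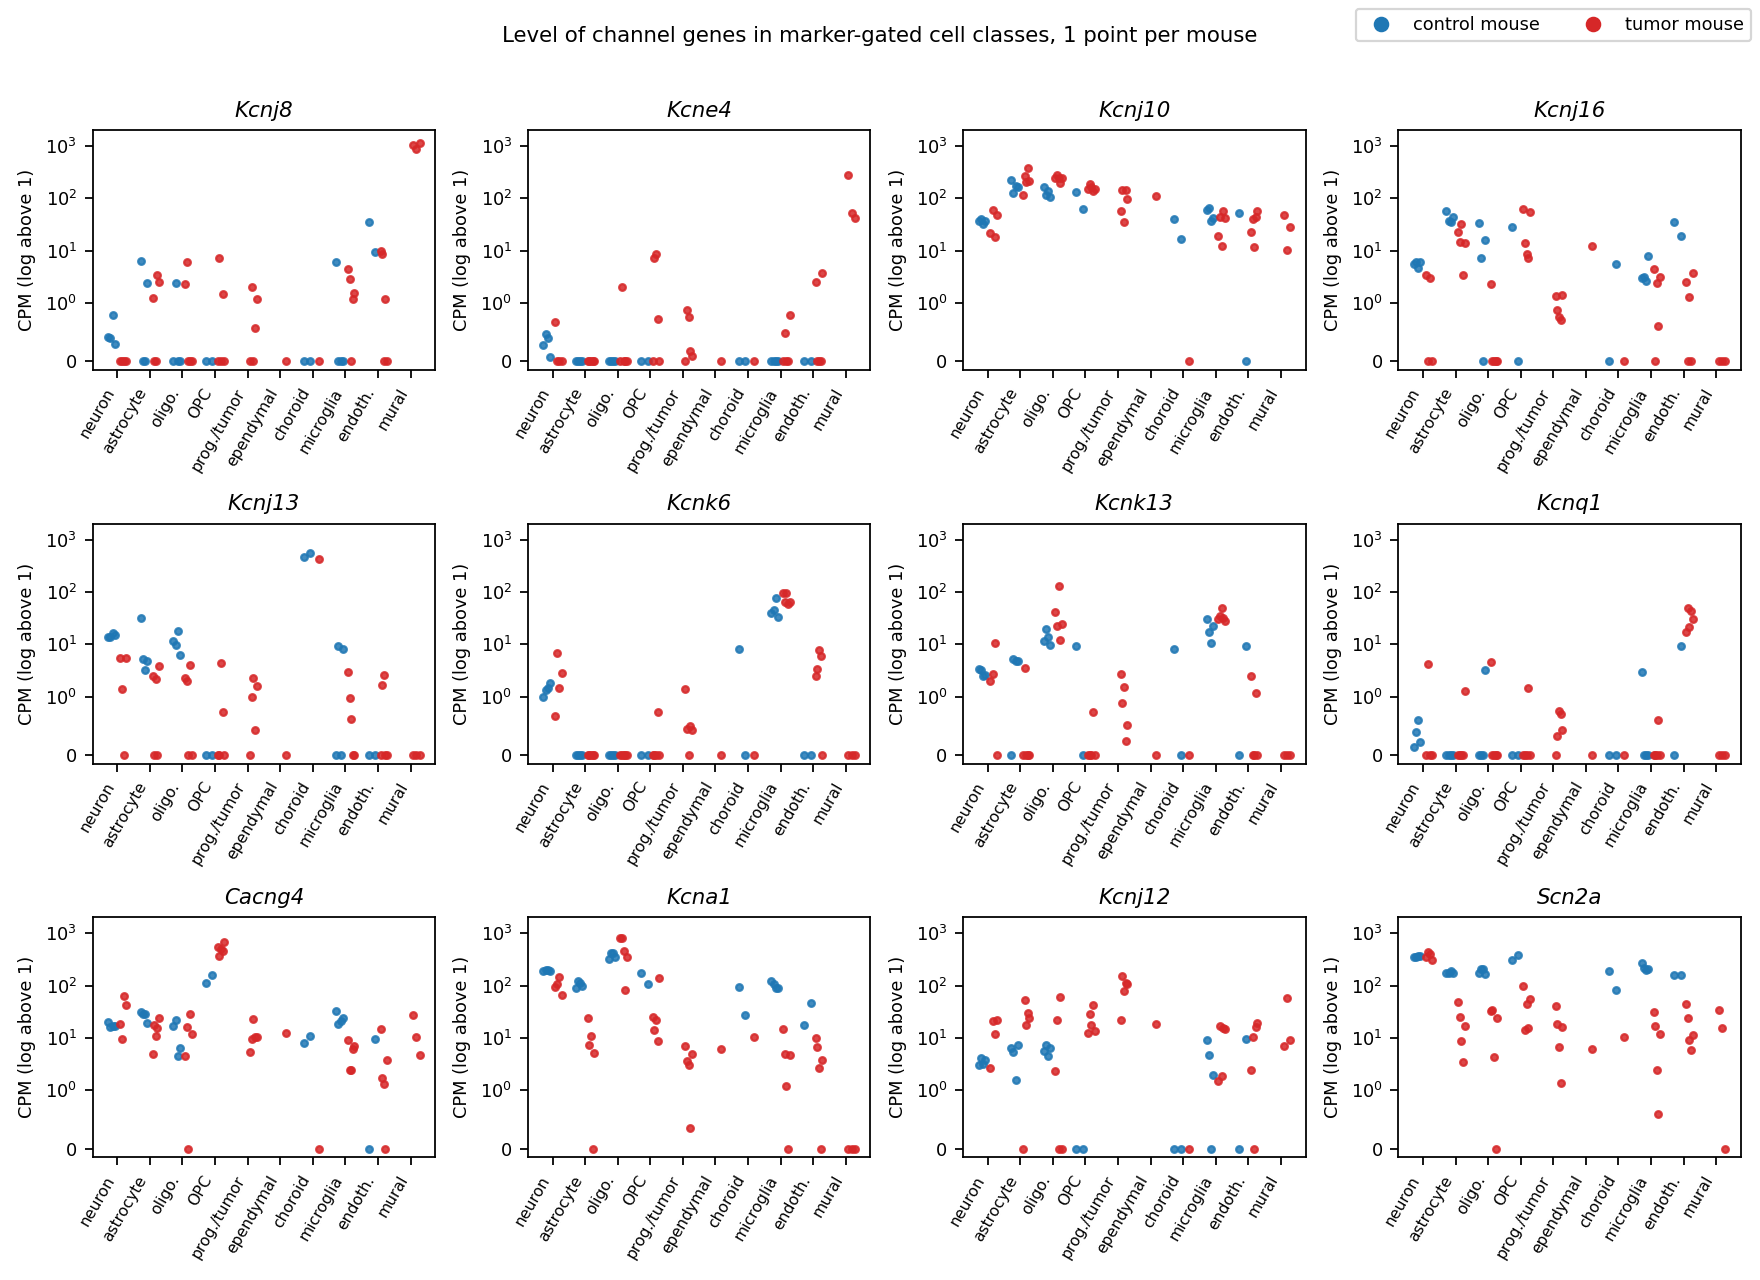
CPM of 12 channel genes (vertical axis, linear below 1 and logarithmic above) in 10 gated cell classes (horizontal axis), with 1 point per mouse, control mice in blue and tumor mice in red. Kcnj8 and Kcne4 stand high in mural-gated cells, Kcnj13 in choroid plexus-gated cells, Kcnk6 in microglia-gated cells, Kcnq1 in endothelial-gated cells, Cacng4 in OPC-gated cells, Kcna1 in oligodendrocyte-gated cells, Kcnj12 in progenitor/tumor-gated cells and Scn2a in neuron-gated cells.

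Of 8 tested K2P channels, which leak potassium at rest, 2 were higher and 4 lower than in neurons in microglia-gated cells, 1 higher and 2 lower in astrocyte-gated and in OPC-gated cells, and 1 higher and 5 lower in oligodendrocyte-gated cells. Of all genes 24.4% were higher and 37.7% lower in microglia-gated, 19.5% and 31% in astrocyte-gated, 11.1% and 25.4% in OPC-gated and 17.7% and 33.3% in oligodendrocyte-gated cells, so these counts of so few genes are read only gene by gene. Kcnk6 was at 39.4, 45.5, 78.0 and 34.0 CPM in the microglia-gated cells of control mice and 96.2, 64.2, 95.0, 59.7 and 63.8 CPM in those of tumor mice, against 0.676 to 6.91 CPM in neurons (5.02 ± 0.30, adjusted p = 1.02e-17). Kcnk13, the background channel that sets the resting potential of microglia, was at 30.3, 17.3, 10.4 and 22.0 and 30.1, 34.3, 49.3, 31.9 and 27.9 CPM there (3.27 ± 0.38, adjusted p = 6.57e-11). All 9 microglial values of Kcnk6 and, with 1 exception, those of Kcnk13 exceeded the neuronal range (0 to 10.5 CPM for Kcnk13). Kcnk13 was also higher in oligodendrocyte-gated cells, at 11.4, 19.5, 13.6 and 9.55 CPM in control and 41.4, 22.3, 132, 12.3 and 24.0 CPM in tumor mice (2.98 ± 0.41, adjusted p = 1.91e-08). Kcnk1, a weakly rectifying K2P subunit, was at 89.3, 58.5, 71.0 and 94.4 CPM in control and 118, 309.9, 193, 147 and 212 CPM in tumor astrocytes (2.10 ± 0.35, adjusted p = 1.21e-06), each tumor mouse above each control mouse, and at 103 to 159.7 CPM in choroid plexus-gated cells. Kcnk10, a stretch- and lipid-sensitive channel, was higher in OPC-gated cells (0 to 62.2 CPM, against 1.38 to 22.5 CPM in neurons, 1.37 ± 0.49, adjusted p = 0.0222), a call lost without tumor replicate 5, where the value was 1.09. Kcnk3, an acid-sensitive channel, passed in mural-gated cells only through tumor replicate 3, with 0, 37 and 0 UMIs in tumor replicates 2, 3 and 4, and without that mouse the sign turned (-5.15). Its acid-sensitive relative Kcnk9 was neuronal, with 67.3 to 187 CPM (median 95.4) in neuron-gated cells and 0 to 12.4 CPM in progenitor/tumor-gated cells (-4.48 ± 0.44, adjusted p = 1.36e-12).

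Among Kv alpha subunits, 9 of 29 tested were lower in every class and 7 were higher in at least 1, against 8.83% and 52% of all genes. Kcna1, a low-threshold channel best known from the juxtaparanodes of myelinated axons, was at 314, 426, 418 and 347 CPM in the oligodendrocyte-gated cells of control mice and 790.3, 816, 463, 82.1 and 348 CPM in those of tumor mice, against 67.3 to 198 CPM in neurons (2.30 ± 0.41, adjusted p = 4.18e-06). The value of tumor replicate 4, from 20 UMIs, was the only one inside the neuronal range. Its relative Kcna6 was 16.4 to 132 CPM there (0.83 ± 0.31, adjusted p = 0.0222), a call lost without control replicate 2 (0.79) or tumor replicate 3 (0.67). Kcnq1, a slow channel of epithelia and heart, was endothelial, at 0 and 9.39 CPM in control replicates 1 and 4 and 17.5, 49.6, 21.2, 42.5 and 30.5 CPM in the 5 tumor mice, against 0 to 4.15 CPM in neurons (4.97 ± 0.62, adjusted p = 1.16e-09). Kcne3, a small subunit that assembles with Kcnq1, stood at 9.99, 17.1, 2.65, 2.36 and 49.6 CPM in the tumor mice and had no UMI in the 2 control mice (adjusted p = 2.31e-05). The order of the tumor mice differed between Kcne3 and Kcnq1, and Kcne3 had 53 UMIs in all kept cells. Endothelial-gated cells also passed for Kcng2, a silent modifier subunit (2.13 ± 0.58, adjusted p = 0.00134), and for Kcna5 (1.87 ± 0.65, adjusted p = 0.0119), the latter lost without control replicate 2 (1.51) or tumor replicate 1 (1.23).

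Kcnh8, a channel of the ether-a-go-go family, passed in OPC-gated cells (28.0 and 46.8 CPM in control replicates 2 and 3, 62.2, 14.3, 13.2, 17.6 and 48.3 CPM in tumor mice, 3.21 ± 0.59, adjusted p = 4.87e-05). Kcnc1, a fast-repolarizing channel of rapidly firing neurons, was 27.6 to 70.1 CPM in progenitor/tumor-gated cells and 111 to 199.8 CPM in neurons, without overlap. It did not pass (-0.71 ± 0.35, adjusted p = 0.0818) but did with the tumor mice alone (-1.11 ± 0.35, adjusted p = 0.00766). Kcna3, known from T cells and activated microglia, had 162 UMIs in all kept cells and at most 2.60 CPM in the microglia-gated cells of any mouse.

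Of the accessory Kv genes 3 were higher than in neurons in at least 1 class, as were 52% of all genes. Kcnip3, a calcium-binding protein that joins Kv channels, was at 65.3 and 78.0 CPM in the OPC-gated cells of control replicates 2 and 3 and 336, 215, 307, 243 and 207 CPM in those of the tumor mice, against 28.0 to 67.7 CPM in neurons (2.22 ± 0.34, adjusted p = 6.98e-07). Kcne4, an inhibitory small subunit, was at 283, 51.8 and 41.8 CPM in mural-gated cells, from 41, 10 and 9 UMIs, and at most 0.676 CPM in neurons (adjusted p = 4.72e-10). The neuronal partners Kcnip2 and Kcnip4 were lower in each class, with log2 fold changes in progenitor/tumor-gated cells of -3.32 and -3.40.

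Large-conductance calcium-activated channels split by subunit. Their pore, Kcnma1, was at 410.2, 399.7, 427 and 409 CPM in control neurons and 343, 343, 297 and 129 CPM in neurons of tumor replicates 1, 2, 3 and 5, and at 4.54 to 37.3 CPM in progenitor/tumor-gated cells (-2.98 ± 0.39, adjusted p = 2.71e-09). Their smooth muscle beta subunit Kcnmb1 was at 96.6, 124 and 97.5 CPM in mural-gated cells (14, 24 and 21 UMIs) and at most 0.997 CPM in neurons (adjusted p = 1.68e-14). It was also at 99.6 CPM in the ependymal-gated cells of tumor replicate 2, a class of 1 mouse with no test. Calls for Kcnmb1 in endothelial-gated (adjusted p = 0.0271) and progenitor/tumor-gated cells (adjusted p = 0.0482) rest on 2 and 9 UMIs in all. The first changed sign without control replicate 1, and the second was lost without any 1 of control replicates 1 and 3 and tumor replicates 3, 4 and 5. A second beta subunit, Kcnmb2, passed in mural-gated cells on 12 UMIs (adjusted p = 6.77e-06), and the brain beta subunit Kcnmb4 passed in OPC-gated cells (1.10 ± 0.41, adjusted p = 0.03), lost without control replicate 1 (1.01), control replicate 4 (0.97) or tumor replicate 5 (0.79). Kcnt1, the sodium-activated channel, was 159 to 219 CPM (median 178) in neurons and 3.60 to 22.1 CPM in progenitor/tumor-gated cells (-3.49 ± 0.34, adjusted p = 1.22e-12). Kcnn4, a calcium-activated channel of blood cells and microglia, had too few UMIs for the class fit. Its microglial UMIs numbered 0, 1, 0 and 0 in control and 0, 19, 3, 20 and 3 in tumor mice, so that tumor replicates 2 and 4 held most of them.

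Sodium channel alpha subunits were neuronal throughout. Scn2a, a pore of the axon initial segment, stood at 355, 343, 359.7 and 365 CPM in control neurons, 345, 438, 402 and 308 CPM in neurons of tumor replicates 1, 2, 3 and 5, and 40.0, 18.8, 6.81, 1.35 and 15.9 CPM in progenitor/tumor-gated cells (-3.65 ± 0.43, adjusted p = 2.55e-10). The Scn2a values of tumor and control neurons overlapped. Scn8a and Scn1a, the other main pores of adult neurons, were 157 to 301 and 133 to 280.2 CPM in neurons and fell by 2.61 and 4.00 on the log2 scale in progenitor/tumor-gated cells. Scn7a, a sodium-sensing glial relative, was at 99.6 CPM (16 UMIs) in the ependymal-gated cells of tumor replicate 2 and at 0 to 8.07 CPM in astrocyte-gated cells.

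Calcium channel alpha1 subunits followed the neurons with 1 exception. Cacna1a and Cacna1b, the presynaptic pores, were 216 to 319 and 135 to 255 CPM in neuron-gated cells, and both fell in progenitor/tumor-gated cells, Cacna1a to 14.7 to 51.1 CPM (-2.80 ± 0.30, adjusted p = 1.61e-11) and Cacna1b to 1.71 to 12.4 CPM (-3.80 ± 0.42, adjusted p = 3.18e-11). Cacna1g, a low-threshold channel, was 45.7 to 193 CPM in neurons and 4.42 to 27.6 CPM in progenitor/tumor-gated cells (-2.61 ± 0.37, adjusted p = 3.21e-08). The L-type pore Cacna1c, which serves smooth muscle as well as neurons, was 27.6, 83.0 and 51.1 CPM in mural-gated cells and 76.0 to 157 CPM in neurons and did not pass (0.06 ± 0.46, adjusted p = 0.935). Cacna1s, the skeletal muscle pore, was the exception, with 3.03, 4.71, 5.20 and 0 CPM in control and 7.52, 15.2, 3.70, 25.3 and 14.4 CPM in tumor microglia against 0 to 2.80 CPM in neurons (3.24 ± 0.59, adjusted p = 4.36e-06), from 1, 3, 2, 0, 5, 31, 6, 42 and 18 UMIs per mouse. Among accessory subunits Cacna2d3 fell in progenitor/tumor-gated cells (6.90, 2.34, 3.03, 0.82 and 3.86 CPM against 105 to 252 CPM in neurons, -4.81 ± 0.48, adjusted p = 2.71e-12), whereas Cacna2d2 held 123, 91.6, 77.2, 74.1 and 208 CPM and did not pass (0.64 ± 0.32, adjusted p = 0.0758).

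Cacng4, a TARP that carries AMPA receptors in glial precursors, was higher in OPC-gated cells than in neurons. It stood at 112 and 156 CPM in control replicates 2 and 3 and 535, 373, 496, 446 and 669.9 CPM in the 5 tumor mice, against 9.68 to 64.5 CPM (median 17.5) in neurons (log2 fold change 3.99 ± 0.37 (SE), adjusted p = 4.85e-13). Every tumor value was above both control values. Those control values came from 30 and 21 cells with summed channel levels of 5644 and 5181 CPM, against 5096 and 5123 CPM in free RNA. The part of free RNA in the OPC-gated values was not tested. Its neuronal relatives Cacng2 and Cacng3 were lower in each class, with 16.8 to 83.1 CPM of Cacng3 in neurons and 0 to 31.2 CPM in OPC-gated cells.

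Taken by family, the progenitor/tumor-gated cells were lower than neurons in 25 of 29 tested Kv alpha subunits and higher in 1, lower in 6 of 7 sodium alpha and 7 of 9 calcium alpha1 subunits, and lower in 7 of 8 K2P and 7 of 11 Kir genes, with Kcnj10 and Kcnj12 higher, against 36.1% lower and 21% higher of all genes. Kcnip3 and Cacna2d2 stayed at fitted differences of 0.04 and 0.64 that did not pass. With the tumor mice alone, whose neuron-gated and progenitor/tumor-gated cells came from the same libraries, 75 of 103 tested channel genes passed, 4 higher and 71 lower, against 54.3% of all genes tested (29.7% higher and 24.5% lower). Neuronal reference genes in the progenitor/tumor-gated cells stood at 29.5 to 56.9% of their free-RNA level. Gria2 was the largest of them, at 377 to 622 CPM, with Snap25 at 3.74 to 196 CPM and Syt1 at 0.856 to 91.1 CPM. The ratio therefore cannot be read as neuronal background alone, and the source of that Gria2 was not tested.

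**Figure D4:**
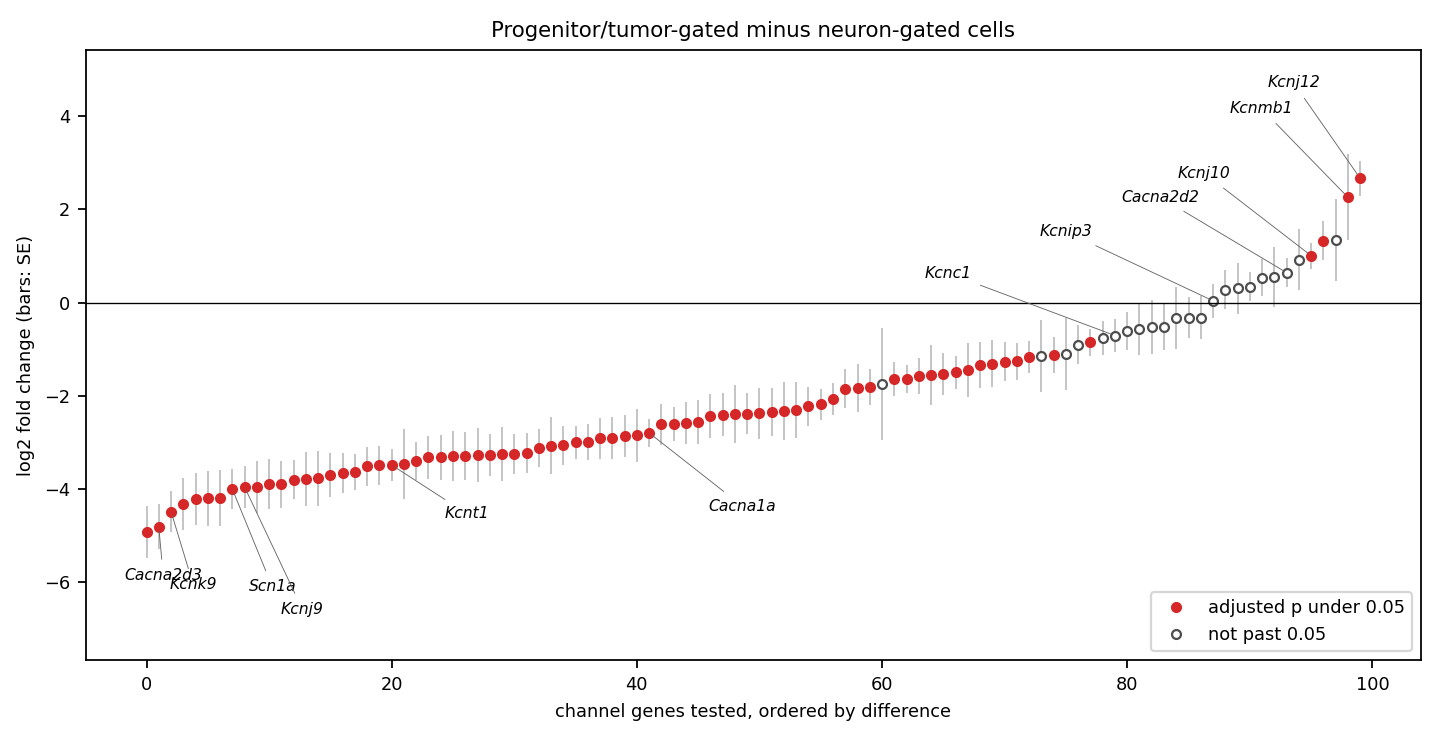
Fitted log2 fold change of the 100 tested channel genes between progenitor/tumor-gated and neuron-gated cells (vertical axis, bars are SE), ordered by size along the horizontal axis. Filled points passed an adjusted p of 0.05: 74 lie below 0 and 4, including Kcnj12 at 2.67, lie above it.

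The same genes were then compared between the tissues. Over all kept cells of a mouse 113 channel genes could be tested between 5 tumor and 4 control mice, and 85 passed, 13 higher and 72 lower in the tumors (75.2%), against 61.7% of all 17590 genes tested (32.3% higher and 29.4% lower). Their median log2 fold change was -1.76, and that of all genes 0.04. In this sum over all cells, fewer cells of a type and less RNA per cell cannot be told apart, and neuron-gated cells made up 51.5 to 64.5% of the kept cells of control mice and 30.1, 6.23, 16.5, 0.0587 and 3.85% of those of tumor replicates 1 to 5. Among the lower genes were Kcnc1, at 180.5, 163, 153 and 158 CPM in control and 51.3, 50.3, 42.4, 37.3 and 31.9 CPM in tumor mice (-1.69 ± 0.18, adjusted p = 0.000173), and the L-type pores Cacna1c (-2.06 ± 0.24, adjusted p = 0.000222) and Cacna1d (-1.38 ± 0.21, adjusted p = 0.00061). The groups did not overlap in Kcnc1. The TARP Cacng8 (-1.84), the accessory subunits Kcnab1 (-2.33) and Kcnab3 (-1.91), the silent subunit Kcng4 (-2.10) and the K2P channel Kcnk2 (-2.36) also fell on the log2 scale.

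Among the 13 genes that rose over all kept cells were Kcnj8 and Kcnj12. Kcnj8 was at 0.85, 0.977, 1.27 and 0.484 CPM in control mice and 6.27, 28.8, 26.8, 13.2 and 6.84 CPM in tumor mice (4.47 ± 0.63, adjusted p = 0.000437), and Kcnj12 at 3.94, 4.46, 2.98 and 4.21 and 5.25, 94.5, 26.4, 94.0 and 83.6 CPM (4.33 ± 0.83, adjusted p = 0.00185). In neither gene did the groups overlap. Kcnq1 (2.80 ± 0.42, adjusted p = 0.000609), Kcnk6 (2.30 ± 0.49, adjusted p = 0.00301) and Cacna1s (2.28 ± 0.44, adjusted p = 0.00191) rose as well, as did Kcna5 (1.75), Kcne4 (2.83), Kcnmb1 (1.61), Kcnk5 (1.39), Kcnj10 (1.29) and Kcnip3 (0.60 on the log2 scale). By family, Kir had 3 higher and 6 lower of 12 tested, K2P 2 and 3 of 11, Kv alpha 3 and 28 of 37, and calcium beta subunits 0 and 4 of 4, against 32.3% higher and 29.4% lower of all genes.

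Within microglia-gated cells (107 to 165 per control and 251 to 427 per tumor mouse) 52 of 59 tested channel genes passed, 2 higher and 50 lower in tumors, against 43.5% of all 8688 genes tested (20% higher and 23.4% lower). Malat1 made up 2.76 to 3.11% of their UMIs in control and 1.14 to 2.53% in tumor mice. Their mean mitochondrial share was 8.21 to 9.47% in control and 9.19, 7.40, 2.98, 2.02 and 2.89% in tumor mice. The bearing of either on the counts was not tested. The lower genes included pores and subunits of neurons. Kcnma1 was at 161, 189.8, 151 and 182 CPM in control and 36.1, 17.7, 14.2, 4.22 and 11.2 CPM in tumor mice (-3.07 ± 0.37, adjusted p = 0.000112), Scn1a at 97.1, 115, 112 and 128 and 10.5, 5.88, 3.08, 0 and 11.2 CPM (-3.93 ± 0.49, adjusted p = 0.000124), and the calcium beta subunit Cacnb4 at 161, 130.2, 119.5 and 150.0 and 12.03, 14.2, 7.40, 1.21 and 4.79 CPM (-3.74 ± 0.41, adjusted p = 7.76e-05). None of these overlapped between groups, and the free RNA of the same libraries held 204 to 232 CPM of Kcnma1 in control and 23.3 to 132 CPM in tumor mice. All 7 neuronal reference genes were detected in the microglia-gated cells of every mouse, at 2934 to 3447 CPM in sum in control and 98.2 to 887 CPM in tumor mice. With free RNA subtracted, 8 channel genes were left to test and 4 passed, 1 higher and 3 lower, against 34.6% of all genes.

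The 2 genes that rose were the microglial K2P channels already described: Kcnk13 (1.23 ± 0.30, adjusted p = 0.00528) and Kcnk6 (1.01 ± 0.26, adjusted p = 0.00716). Every tumor value of Kcnk13 except that of replicates 1 and 5 was above the highest control value, and for Kcnk6 the groups overlapped through control replicate 3. With free RNA subtracted neither passed (0.57 and 0.06).

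**Figure D5:**
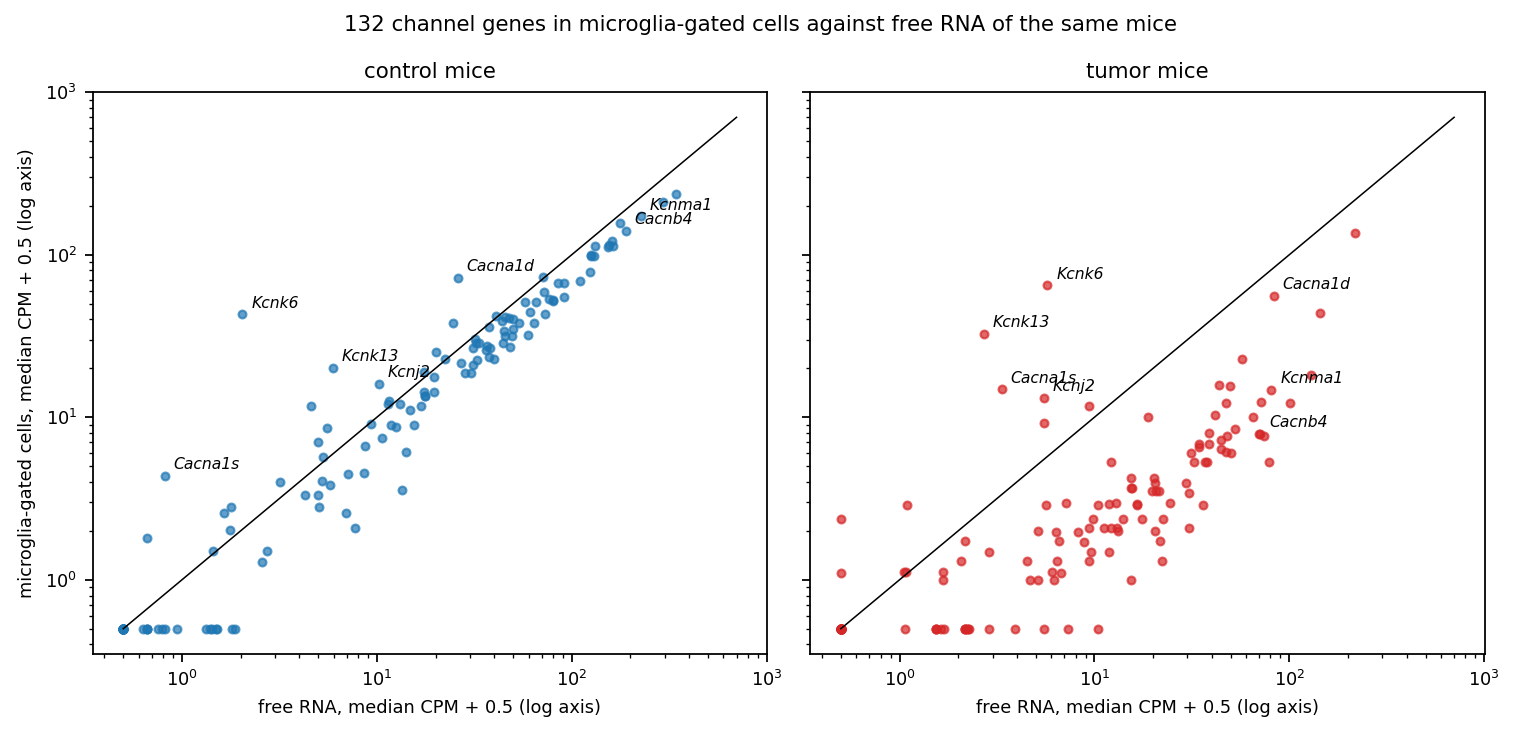
Median CPM plus 0.5 of each of the 132 channel genes in microglia-gated cells (vertical axis) against the free RNA of the same mice (horizontal axis), both logarithmic, for control mice on the left and tumor mice on the right, with the line of equal levels. Most points of the control mice follow the line, those of the tumor mice fall below it, and Kcnk6, Kcnk13 and Cacna1s lie above it in both.

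In astrocyte-gated cells 41 of 53 tested channel genes passed, 2 higher and 39 lower in tumors, against 35.7% of all 8356 genes tested (17.3% higher and 18.4% lower). Kcnk1, whose values are given above, rose (1.37 ± 0.29, adjusted p = 0.00208), and so did Kcnn2, a small-conductance calcium-activated channel, from 89.3, 69.1, 25.8 and 82.3 CPM to 142, 123, 215, 116 and 99.4 CPM (1.16 ± 0.33, adjusted p = 0.012), each tumor value above each control value. Kcnj10, the astrocytic rectifier, did not pass (0.54 ± 0.30, adjusted p = 0.181). Among those that fell were the G protein-gated Kcnj9 (-3.57), Cacna1b (-3.45), Kcnh7 (-4.19), Kcnc1 (-2.35), Scn1a (-3.71), the sodium beta subunit Scn4b (-4.02) and Cacnb3 (-2.99 on the log2 scale). Kcnj9, Cacna1b, Kcnh7 and Scn1a belong to the 29 genes lower than in neurons in every class. In sum the 7 neuronal reference genes in these cells held 3653 to 4533 CPM in control and 304 to 1400.4 CPM in tumor mice, with Syt1, Slc17a7 and Nefl at 0 in 1 tumor mouse each. The ranges of Slc17a7 and Ppp1r1b overlapped between the groups. With free RNA subtracted 10 channel genes were left to test and 3 passed, against 43.4% of all genes. The share subtracted came from the same 7 genes, of which Gria2 was the largest, so it cannot be read as neuronal background alone.

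Endothelial-gated cells could be compared in 2 control and 5 tumor mice only. Of 29 tested channel genes 4 passed, all lower in tumors, against 3.81% of all 7616 genes tested (2.14% higher, 1.67% lower). They were Cacnb4 (-3.48 ± 0.61, adjusted p = 0.0264), Cacna1a (-1.75 ± 0.40, adjusted p = 0.0457), Scn2a (-2.90 ± 0.67, adjusted p = 0.0457) and Kcnh7 (-3.66 ± 0.88, adjusted p = 0.0493). Scn2a stood at 159 and 159.7 CPM in control replicates 1 and 4 and 45.0, 23.9, 9.26, 5.90 and 11.5 CPM in the tumor mice. The count was 0 without control replicate 1 or control replicate 4, and 1 without tumor replicate 2 or tumor replicate 5, and DESeq2 called 10 (7.18% of all genes tested). Neuronal reference transcripts stood in these cells at 43.8 to 53.1% of the free-RNA level in control and 5.45 to 20.1% in tumor mice.

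Genes that work with these channels were read from a list of 35: sodium pump subunits, hyperpolarization-activated (HCN) channels, the leak channel Nalcn with Unc79 and Unc80, anchoring and accessory proteins, sulfonylurea receptors, chloride, proton and mechanosensitive channels, intracellular calcium release channels and Rest, the repressor of neuronal genes. Over all kept cells 8 of 35 rose and 21 fell in tumors, against 32.3% and 29.4% of all genes, among the risers Rest (2.46 ± 0.30, adjusted p = 0.000248) and the volume-regulated anion channel subunit Lrrc8a (1.82 ± 0.22, adjusted p = 0.000266). Against neuron-gated cells 34 could be tested. In progenitor/tumor-gated cells 3 were higher and 25 lower, against 21% and 36.1% of all genes, the higher ones including Rest (1.92 ± 0.28, adjusted p = 4.93e-08) and the glial sodium pump subunit Atp1b2 (1.19). Rest was higher than in neurons in each of the 7 classes, from 1.33 in oligodendrocyte-gated to 2.05 in microglia-gated cells on the log2 scale.

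In the other classes, too, more of the 34 were lower than higher. Mural-gated cells, high in Kcnj8, were also higher in Abcc9, the sulfonylurea receptor that completes the vascular ATP-sensitive channel, at 674 to 1012 CPM against 0 to 6.91 CPM in neurons (adjusted p = 1.85e-23), and in the calcium-activated chloride channel Ano1 (adjusted p = 6.84e-12), with 7 higher and 17 lower of 34 against 15.3% and 21.4% of all genes. In astrocyte-gated cells 4 were higher and 20 lower (19.5% and 31% of all genes), with Atp1b2 at 3.38 ± 0.31, adjusted p = 4.35e-14, and Lrrc8a at 1.97 ± 0.23, adjusted p = 2.55e-10. Of the other higher genes 1 was itself a gate marker and is no finding there. Microglia-gated cells (6 higher, 22 lower, 24.4% and 37.7% of all genes) had the proton channel Hvcn1 (5.43 ± 0.32, adjusted p = 1.5e-21), endothelial-gated cells (6 higher, 21 lower, 22.9% and 35.8% of all genes) the mechanosensitive channel Piezo1 (4.30 ± 0.43, adjusted p = 4.77e-13), and oligodendrocyte-gated cells (3 higher, 20 lower, 17.7% and 33.3% of all genes) Hcn2 (2.49 ± 0.35, adjusted p = 2.27e-08). In OPC-gated cells 3 were higher, Rest and Atp1b2 among them, and 15 lower (11.1% and 25.4% of all genes).

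Between tissues, 3 of 27 tested partner genes were higher and 18 lower in the microglia-gated cells of tumors, against 20% and 23.4% of all genes, the higher ones being Hvcn1 (1.62), Rest (0.86) and the pump subunit Atp1b3 (0.70 on the log2 scale). In astrocyte-gated cells 2 of 27 were higher, Lrrc8a (2.20 ± 0.38, adjusted p = 0.00047) and Atp1b2 (0.93 ± 0.22, adjusted p = 0.00385), and 16 lower, against 17.3% and 18.4% of all genes. In endothelial-gated cells 2 of 23 passed, both lower, against 1.67% of all genes lower.

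Of the 32 members that were not tested against neurons, none was without a UMI in the kept cells. They included rarely used pores such as Kcnj1, the kidney rectifier (1 UMI), Scn4a, the skeletal muscle sodium pore (4 UMIs), Kcne1 (6), Scn11a (17) and Scn10a (30), the last 2 being pores of sensory neurons. The largest was Kcng1, a silent Kv subunit, with 1166 UMIs. Over all kept cells 19 members remained untested.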

How the data were processed

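UMI counts were analysed in 9 mice. Per the labels, the deposited files came from Cell Ranger runs by the authors on mm10 (the submitters' processing notes name Cell Ranger 7 and Scanpy 1.8.2, the file headers an earlier Cell Ranger release), and the deposited values are raw counts per gene and barcode. Control replicate 4 lists fewer barcodes than its matrix holds, so its barcodes were used by column. The 10000 barcodes with most UMIs per library were considered (6001 in tumor replicate 3), those with 200 to 6000 genes were kept, and a 2-component mixture on mitochondrial share and gene number and Scrublet scores (Scanpy 1.11.5, 0.8% per 1000 cells) removed low-quality barcodes and doublets.

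Cells were gated where at least 3 markers of a class were detected at 2 times the expected UMIs or more, a rule set after cell numbers were seen. Expected UMIs came from the free RNA of the same library. For the progenitor/tumor class alone they came from the free RNA of control libraries, since that of tumor libraries is rich in its markers. The members, lists and comparisons were chosen with earlier results of these data known. Sums per mouse and class of at least 20 cells were tested with edgeR 4.0.16 (quasi-likelihood test, R 4.3.3) after TMM scaling and removal of genes with too few UMIs, and p-values were adjusted over all genes by Benjamini-Hochberg, with a threshold of 0.05. There were 4 comparisons of tumor with control mice, and 7 of a class with neuron-gated cells in 1 fit with the mouse as a block. Fold changes are on the log2 scale with their SE. Free RNA was subtracted, as an alternative, in proportion to the 3000 smallest barcodes. The share came from the 7 neuronal reference genes, capped at the whole class sum, and neuron sums were left as they were. Named genes were the 8 with the smallest adjusted p in each direction of a comparison, the 3 with the highest mean CPM per class and textbook channel markers. Other members were named after their values were seen. Some genes that these rules name are not reported here. DESeq2 1.42.0, gates, filters and left-out mice served as alternatives, and the tests were tried on simulated counts. Sequences are from RefSeq (GRCm38.p6).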

Additional observations from a re-analysis of the deposited data

Results flagged for a closer look

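Cacnb4, a beta subunit that brings calcium channel pores to the membrane, differed between the tissues in 1 of 74 class and gene pairs compared. Its difference between oligodendrocyte-gated and neuron-gated cells was positive in each of 4 control mice, with a mean of 0.44 (0.11 to 0.56) on the log2 scale after adding 10 CPM, and negative in each of 4 tumor mice, with a mean of -1.43 (-2.10 to -1.04), so that tumor minus control was -1.87. Oligodendrocyte-gated cells held 257, 241, 177 and 264 CPM of Cacnb4 in control and 68.9, 103, 50.9, 20.5 and 36.0 CPM in tumor mice, neuron-gated cells 174, 159.7, 164 and 179 and 183, 224, 250.4 and 104 CPM, and free RNA 179 to 198 and 3.49 to 84.2 CPM. The difference between the tissues was not tested, and the part of free RNA in it was not tested either. In 44 checks for a mouse far from the others of its group none stood apart.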

How the results depend on the processing

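Of 192 alternatives of the 11 counts of channel genes that passed, 173 lay within 1.5 times the reported count. In the endothelial-gated comparison of tumor with control, the count of 4 of 29 (290 of all 7616 genes) became 10 of 29 with DESeq2 (547 of 7616), 19 of 113 without a filter on low counts (1052 of 17250), 16 of 27 without removal of doublets (1196 of 6493), 17 of 24 at a mitochondrial limit of 20% (1809 of 6948), 10 of 14 with the stricter gate (1451 of 5068) and 0 of 7 with free RNA subtracted (391 of 6465). With free RNA subtracted the counts in microglia-gated and astrocyte-gated cells were 4 and 3, by construction over fewer genes, and without the filter the astrocyte count was 66. In control mice only, 49 genes passed in oligodendrocyte-gated, 17 in OPC-gated and 34 in endothelial-gated cells against neurons, from fewer mice, and 11 in OPC-gated sums of at least 50 cells, 7 higher and 4 lower, where tumor replicate 4 alone gave an OPC sum and had no neuron sum. Leaving out 1 mouse at a time gave 66 to 94 genes over all kept cells, 52 to 61 in microglia-gated, 34 to 41 in astrocyte-gated and 0 to 6 in endothelial-gated cells between tissues. Against neurons it gave 70 to 77 (progenitor/tumor), 56 to 69 (astrocyte), 65 to 75 (oligodendrocyte), 45 to 59 (OPC), 75 to 86 (microglia), 80 to 89 (endothelial) and 32 to 60 (mural). For the no-filter astrocyte, control-only, 50-cell and leave-one-out counts the number tested and the share of all genes are not given here. Those counts show only how the reported count moved and are no result about channel genes beside all genes. Of 131 named results under 2266 alternatives, 81 kept their direction but did not pass and 7 reversed: Kcnj10 with free RNA subtracted in progenitor/tumor-gated (-0.59) and OPC-gated cells (-0.26), Kcnmb1 in progenitor/tumor-gated cells without the mouse block (-1.07) and with DESeq2 (-0.39), Kcnmb1 in endothelial-gated cells without control replicate 1 (-0.51, in a range up to 3.55 without 1 mouse at a time) and in tumor mice only (-0.16), and Kcnk3 in mural-gated cells without tumor replicate 3 (-5.15, in a range up to 3.81). Alternatives in which a gene could not be tested are not in this tally. With free RNA subtracted, a setting not run over all kept cells, it holds 94 of the 131 named results. Between tissues, each named gene lower in microglia- or astrocyte-gated cells had 16 alternatives, against 17 for each higher one. Fits of Kcnmb1 depend on the prior count, since neurons of tumor mice held no UMI of it. The free-RNA subtraction left neuron sums as they were, so the Kcnj10 reversals are no test of its direction. The cause was not tested.

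With the replicate number as a block, 75 of 113 channel genes passed over all kept cells, 52 of 59 in microglia-gated, 42 of 53 in astrocyte-gated and 2 of 29 in endothelial-gated cells. The share of all genes in these fits is not given here, so the counts show only how the reported ones moved. Same-numbered tumor and control mice did not deviate together (correlations of -0.01 to 0.08), so the numbers do not pair them. Sums of at least 50 cells were not run for the endothelial comparison of tissues and for mural-gated cells, and control mice gave no mural sum. Counts of a few UMIs per mouse limit the OPC-, endothelial- and mural-gated classes.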

Other observations

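Erythroid-gated cells, for which no test was made, also held channel transcripts: 2442 to 3858 CPM in sum in the 4 control mice and 523 to 813 CPM in the 2 tumor mice with enough such cells. Their neuronal reference genes stood at 46.7 to 61.7% and 13.6 to 22.0% of the free-RNA level. In the ependymal-gated cells of tumor replicate 2, the sum was 1208 CPM and the ratio 11.4%.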
